A study of Mus musculus with 6 samples.

Results

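The genes described here encode the light chains of antibodies: every row of the 6 deposited tables whose gene symbol begins with Igk or Igl followed by v, c or j. That rule took 118 of 22298 genes, 106 of the kappa locus and 12 of the lambda locus. They were 100 variable (Igkv), 5 joining (Igkj) and 1 constant (Igkc) gene for kappa, and 3 variable (Iglv), 5 joining (Iglj) and 4 constant (Iglc) genes for lambda. RNA was sequenced from thymocytes of untreated C57BL/6 mice, 3 libraries of the genotype Toxf/f (controls) and 3 of the genotype Toxf/fCd4Cre, written Cd4Cre below. Mice of both genotypes carry the floxed Tox alleles, and in Cd4Cre mice the recombinase Cre is driven by Cd4 regulatory sequences. In each genotype the mice of replicate 1 were 4 weeks old and those of the other 2 replicates were 3 weeks old. Titles call the cells double-negative thymocytes, the precursors with neither CD4 nor CD8 on their surface, whereas the protocol names a DN2 sort. No group with Cre and unfloxed Tox was analysed here, so Cre itself and loss of Tox cannot be told apart. The labels do not say how many mice made up a replicate or whether each replicate is a separate mouse. Age sets replicate 1 of each genotype apart, and Y-linked counts, given below, set control replicate 2 apart from the other controls, while nothing in the labels separates Cd4Cre replicates 2 and 3. The p-values measure the spread between these libraries.

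A light chain pairs with a heavy chain to form an antibody or the B cell receptor. In developing B cells, V(D)J recombination joins 1 V segment to 1 J segment, first at kappa and, where kappa fails, at lambda, and the joined exon is spliced to a constant exon. In the mouse most B cells carry kappa chains, and plasma cells, the antibody-secreting end stage, hold far more light chain RNA than resting B cells. A thymus holds some B cells and plasma cells beside its T cell precursors, which express the recombinase but do not normally make full light chains.

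Several of these genes are near copies of each other, which bears on how reads can be assigned, so 2 pairs on which results turn are shown from the GENCODE M21 transcripts (GRCm38), read 5′ to 3′ with capitals at the bases that differ within the pair. The first pair is the lambda constant genes Iglc2 and Iglc3, which moved by different amounts.
Iglc2: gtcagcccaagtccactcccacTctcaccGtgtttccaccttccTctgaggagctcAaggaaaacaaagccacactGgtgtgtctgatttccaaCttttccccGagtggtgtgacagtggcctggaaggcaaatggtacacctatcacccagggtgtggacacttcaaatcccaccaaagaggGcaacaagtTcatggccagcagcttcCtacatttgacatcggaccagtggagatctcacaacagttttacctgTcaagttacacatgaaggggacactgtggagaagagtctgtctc
Iglc3: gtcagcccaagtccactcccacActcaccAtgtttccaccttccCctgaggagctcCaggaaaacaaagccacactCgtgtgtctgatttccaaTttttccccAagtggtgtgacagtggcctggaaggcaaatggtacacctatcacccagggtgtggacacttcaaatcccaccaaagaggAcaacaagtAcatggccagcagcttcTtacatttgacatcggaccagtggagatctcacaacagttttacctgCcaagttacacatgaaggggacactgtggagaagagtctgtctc
These genes differ at 11 of 314 compared coding bases (96.5% identity), all within the 300 bases shown. The longest coding stretch without a difference is 79 bases. The second pair is Igkv1-117 and Igkv1-110, which were among the 3 Igkv genes with the most counts.
Igkv1-117: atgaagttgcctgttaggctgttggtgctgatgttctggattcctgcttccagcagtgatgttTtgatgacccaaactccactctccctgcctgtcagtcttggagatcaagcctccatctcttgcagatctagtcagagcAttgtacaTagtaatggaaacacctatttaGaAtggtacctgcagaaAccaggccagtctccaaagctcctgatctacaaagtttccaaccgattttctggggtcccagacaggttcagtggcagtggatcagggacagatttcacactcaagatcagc
Igkv1-110: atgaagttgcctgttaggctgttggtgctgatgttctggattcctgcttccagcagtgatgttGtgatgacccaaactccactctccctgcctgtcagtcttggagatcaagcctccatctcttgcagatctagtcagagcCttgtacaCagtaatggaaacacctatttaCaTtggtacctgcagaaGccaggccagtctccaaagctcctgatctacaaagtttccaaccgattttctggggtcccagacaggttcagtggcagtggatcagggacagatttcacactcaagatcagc
This pair differs at 10 of 359 compared bases (97.2% identity), 6 of them in the 300 bases shown, and its longest identical stretch is 142 bases. Of the 103 V genes, 76 share at least 1 identical stretch of 50 bases with another of these 118 genes, and in 12 such stretches make up over 50% of the transcript. How reads that match several genes were assigned is not given in the sources used here, so single V genes and single lambda constant genes are uncertain, and their sums are less so.

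Libraries held 14550593 to 16099023 estimated counts. Tox, the targeted gene, was lower in all 3 Cd4Cre libraries (log2 fold change -3.03, SE 0.12, adjusted p = 3.55e-08 by edgeR's quasi-likelihood test). Control replicate 2 held 3740 counts of 4 Y-linked genes (Ddx3y, Eif2s3y, Uty and Kdm5d) and the other 5 libraries held 2 to 5. The sum of 10 T cell markers was 7234 to 7313 CPM in controls and 7316 to 7967 CPM with Cd4Cre, where CPM are counts scaled to library size. Of 10 dendritic cell and macrophage markers 1 was called, Lyz2, the lysozyme of myeloid cells, which was lower with Cd4Cre (314 to 373 CPM against 117 to 150 CPM, log2 fold change -1.33, SE 0.10). The sum of the other 9 was 176 to 180 CPM in controls and 160 to 188 CPM with Cd4Cre. The sum of all 10 was 490 to 554 CPM and 305 to 322 CPM, in that order, a difference that follows Lyz2. The sum of 10 thymic epithelial markers was 1748 to 1915 CPM in controls and 2180 to 2404 CPM with Cd4Cre. Among these markers Krt5, Krt8, Krt18, Psmb11 and Prss16 were called higher and Krt14 lower. The number called higher was 2 to 5 and the number called lower 0 to 2 with 1 library left out. Without control replicate 2 or 3 or Cd4Cre replicate 1 it was 2 higher, and without control replicate 1 it was 3. In the 3-week-old libraries alone, where fewer samples entered, 0 were called higher and 0 lower. No marker of these 3 lists was at 0 counts in all libraries, and the part of these cells in the light chain results was not tested. In bulk RNA, fewer cells of a type and less RNA per cell cannot be told apart.

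Light chain transcripts were present in all 6 libraries and were several times less abundant with Cd4Cre. Summed over all 118 genes, the controls held 1598, 1578 and 1492 counts and the Cd4Cre libraries 222, 219 and 201. The sum was 103 ± 4.27 CPM in controls and 13.9 ± 0.21 CPM in Cd4Cre libraries (SD, n = 3), which is 13.5% of the control level. The kappa sum, at 1360, 1413 and 1319 counts in controls and 164, 167 and 159 with Cd4Cre, had a log2 ratio of -3.09 in CPM, 11.7% of the control level. The lambda sum, at 238, 165 and 173 counts against 58, 52 and 42, had a log2 ratio of -1.95, or 25.8%. Neither sum overlapped between the groups, and each Cd4Cre library lay within a narrow range of the others. A sum over genes was given no test.

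**Figure D1:**
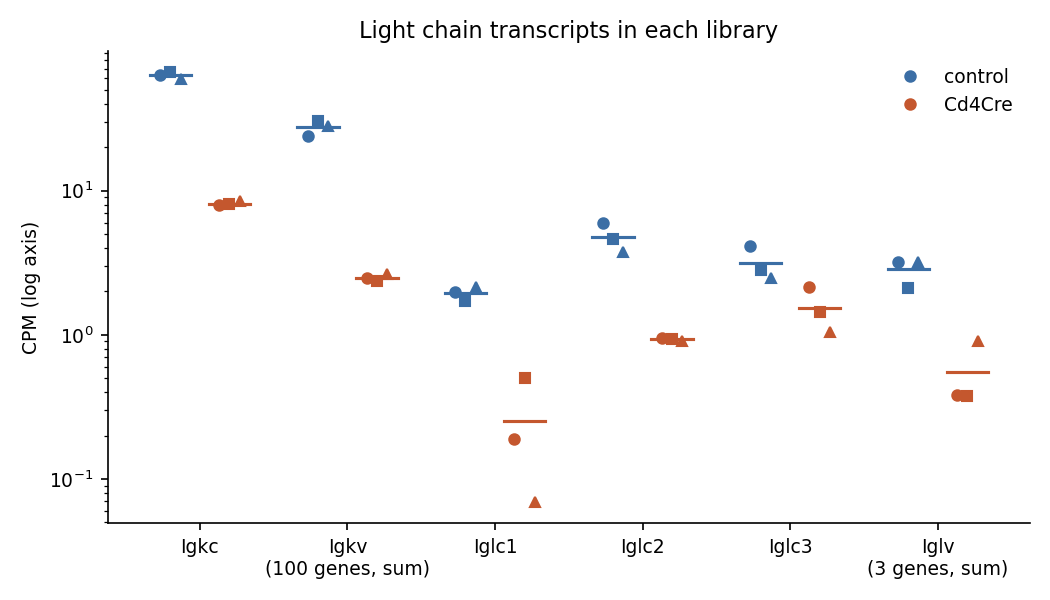
Level of each light chain constant gene and of the summed V genes in each library, in CPM on a log axis, with control libraries in blue and Cd4Cre libraries in orange. Circles, squares and triangles are replicates 1, 2 and 3, bars are means of 3 libraries, and Iglc3 shows the smallest gap between the groups (49.6% of the control level).

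Of the 118 genes, 85 had at least 1 count and 33 had none in any library. The controls held counts of all 85 and the Cd4Cre libraries of 46. Thus 39 genes were counted in controls alone and 0 in Cd4Cre libraries alone, at light chain totals that differed 7.43-fold in CPM. After scaling for depth, 84 of the 85 were higher in the pooled controls. The exception was Igkv8-16, with 2, 0 and 0 counts in controls and 1, 4 and 1 with Cd4Cre (fitted with no count filter, log2 fold change 1.40, SE 1.29, edgeR adjusted p = 0.694). Pooled counts were equal for Igkv4-50 (1 against 1) and Igkv9-124 (2 against 2). Only the depth scaling put their controls higher. In 47 genes all 3 controls lay above all 3 Cd4Cre libraries, and in 0 genes below. Over all 19052 genes with a count, 9.53% had all controls above all Cd4Cre libraries.

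**Figure D2:**
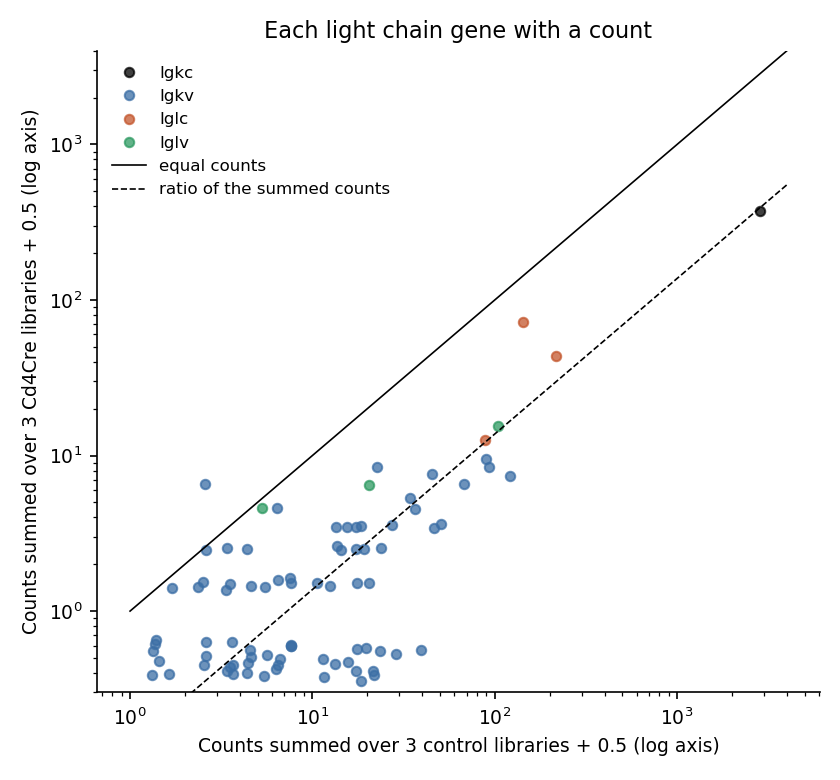
Each of the 85 light chain genes with a count, by its counts summed over the 3 control libraries and over the 3 Cd4Cre libraries, each plus 0.5, on log axes, with points at low counts spread by a small random shift for legibility. The solid line marks equal counts and the dashed line the ratio of the summed counts, and 84 genes lie on the control side of equal depth-scaled levels.

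The test across genes was run on the 13934 genes that passed a filter on low counts, of which 2.96% were called lower with Cd4Cre and 1.15% higher at an adjusted p under 0.05. These 572 genes became 298 without control replicate 2 and 1269 without Cd4Cre replicate 3. Only 12 light chain genes passed, of which 11 were called lower and 0 higher. Of these, 9 passed through their control counts alone, namely 7 Igkv genes, Iglv1 and Iglc1. These had to differ to be tested, so their share is not evidence about the genes as a whole. Igkc, Iglc2 and Iglc3 reached the count minimum in all 3 Cd4Cre libraries as well, and 2 of these 3 were called lower. With no count filter, all 85 genes with a count were tested and 21 were called lower, against 2.45% of the 19052 genes in that fit, while 0.913% of its genes were called higher.

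Igkc encodes the only kappa constant region, is part of every kappa transcript, and held most of the light chain counts. Its counts were 988, 969 and 896 in controls and 125, 129 and 121 with Cd4Cre. The control libraries lay far above the Cd4Cre libraries, and libraries within a group differed little. The mean was 63.1 ± 3.30 CPM in controls and 8.12 ± 0.26 CPM with Cd4Cre (SD, n = 3), and the fall passed the test (log2 fold change -2.96, SE 0.09, edgeR adjusted p = 1.09e-08). On the length-scaled values that the authors deposited, Igkc was at 119 ± 7.14 FPKM in controls and 15.2 ± 0.36 FPKM with Cd4Cre. With Cd4Cre, 12.9% of the control CPM of Igkc remained.

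The Igkv genes encode the variable regions that, with the heavy chain's, form the antigen-binding site. Their sum was 372, 444 and 423 counts in controls and 39, 38 and 38 with Cd4Cre, which is 9.08% of the control level (95% exact interval 7.44% to 11%, counting error only). Of the 100 genes, 78 had a count in controls and 39 of these also with Cd4Cre. No single gene dominated, as 37 genes had more than 10 counts over all libraries and 41 had 1 to 10. The 10 most abundant took 50% of Igkv counts in controls and 45.2% with Cd4Cre.

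Igkv1-117 had the most counts, at 22, 47 and 51 in controls and 1, 4 and 2 with Cd4Cre. Its log2 fold change was -4.07 (SE 0.53, edgeR adjusted p = 0.00095). Igkv10-96 held 28, 30 and 35 counts in controls against 2, 1 and 5, with a log2 fold change of -3.51 (SE 0.46). For Igkv1-110, the near copy of Igkv1-117 shown above, the counts were 19, 29 and 41 against 1, 5 and 3, with a log2 fold change of -3.29 (SE 0.51). In each of these 3 genes the lowest control was several times the highest Cd4Cre library. All 3 passed the count filter through their control counts alone, which fixed that the groups would not overlap.

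Igkv1-135 held 21, 19 and 27 counts in controls and 3, 1 and 2 with Cd4Cre (log2 fold change -3.43, SE 0.47). Igkv5-43 held 19, 12 and 19 counts against 2, 0 and 1 (-3.93, SE 0.64 on the same scale). Igkv6-32 held 12, 16 and 18 counts against 1 in every Cd4Cre library (-3.81, SE 0.57). These genes belong to different V families. Each passed the count filter through its control counts alone, so that filter fixed their lack of overlap between the groups.

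The last of the 7 called Igkv genes, Igkv19-93, held 21, 13 and 11 counts against 4, 0 and 3, a log2 fold change of -2.65 (SE 0.63, edgeR adjusted p = 0.0392). This call was lost when any of 5 single libraries was left out (adjusted p 0.067 to 0.175), that is each control and Cd4Cre replicates 1 and 2. Over the 7 genes the adjusted p ran from 0.00095 to 0.0392. All 7 passed the count filter through their control counts alone, so these calls are not evidence about the Igkv genes as a whole. Igkv14-111, with 7, 16 and 13 counts against 1, 0 and 3, and Igkv4-68, with 16, 8 and 10 against 2, 1 and 2, completed the most abundant genes together with Igkv12-44 and missed the count filter.

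Igkv12-44 had 21, 6 and 12 counts in controls and 0 in each Cd4Cre library, so its pooled level was at least 13.3-fold lower, taking a floor of 3 counts over the group. For Igkv4-59, named after its values were seen, the counts were 5, 14 and 9 against 0 in each, at least 9.54-fold lower against the same floor. Both were called lower in the fit with no count filter (edgeR adjusted p = 0.00357 for Igkv12-44 and 0.00987 for Igkv4-59). Since Igkv4-59 was named with its values known, its p-value adds no evidence.

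The number of Igkv genes counted per library was 66, 61 and 58 in controls and 25, 20 and 20 with Cd4Cre, but this number follows the counts drawn. When each library was thinned to 38 Igkv counts, the lowest total, the expected number was 24.3, 23.8 and 22.0 in controls and 24.6, 20 and 20 with Cd4Cre. These ranges overlapped (23.3 ± 1.22 against 21.5 ± 2.68 genes, SD, n = 3), so a smaller variety of V genes was not detectable at this depth. Counting only genes with at least 2 counts turned the sign of the difference, from -1.80 to 0.87 genes.

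By V family, family 1 held 23.3% of Igkv counts in controls and 19.1% with Cd4Cre, family 4 held 18.0% and 15.7%, family 6 held 10.7% and 9.57%, and family 10 held 9.52% and 9.57%. Family 8 held 6.46% in controls and 14.8% with Cd4Cre, but 28.9% in Cd4Cre replicate 2 against 7.69% and 7.89% in the other Cd4Cre libraries. Those shares with Cd4Cre rest on 115 counts in all. Genes that lie in the opposite orientation to Igkc, which rearrange by inversion, were 62 of the 100 and held 59.5% of Igkv counts in controls and 58.3% with Cd4Cre. The 50 Igkv genes farthest from the joining segments held 56.2%, 62.4% and 60.3% in controls and 69.2%, 52.6% and 76.3% with Cd4Cre, which overlapped.

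Igkv counts were fewer for each Igkc count with Cd4Cre. For each 100 Igkc counts there were 37.7, 45.8 and 47.2 Igkv counts in controls and 31.2, 29.5 and 31.4 with Cd4Cre. The groups did not overlap, with means of 43.6 ± 5.16 and 30.7 ± 1.07 (SD, n = 3). An Igkc read can also come from a transcript of the unrearranged locus, which holds no V segment, and the source of these reads was not tested.

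All 10 joining genes, Igkj1 to Igkj5 and Iglj1 to Iglj4 with Iglj3p, had 0 counts in every library. They are 38 to 42 bases long in GENCODE M21, and 1 segment of each locus is shown to make that length plain, with no base marked.
Igkj1: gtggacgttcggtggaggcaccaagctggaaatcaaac
Iglj1: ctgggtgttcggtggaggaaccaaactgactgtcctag
Igkv and Igkc counts were present in the same libraries. How reads over a junction were assigned is not known, so these zeros do not show which joining segments were used.

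The lambda constant genes had unequal fold changes. Iglc2 had 93, 68 and 56 counts in controls and 15, 15 and 13 with Cd4Cre. Its log2 fold change was -2.35 (SE 0.26, edgeR adjusted p = 0.000267), with no overlap between groups. Iglc1, the constant gene that mostly follows Iglv1, had 31, 25 and 32 counts against 3, 8 and 1, a log2 fold change of -2.87 (SE 0.46, edgeR adjusted p = 0.0038). Unlike Iglc2, Iglc1 passed the count filter through its control counts alone.

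Iglc3 had 64, 41 and 37 counts in controls and 34, 23 and 15 with Cd4Cre. All 3 controls lay above all 3 Cd4Cre libraries, by a small margin (37 against 34). Its log2 fold change of -1.01 (SE 0.31) did not pass the threshold (edgeR adjusted p = 0.111), and its pooled level was 49.6% of the control level (95% exact interval 36.8% to 66.3%). It was the only light chain gene past the count filter that was not called. Iglc4 had 0 counts in all libraries.

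Among the lambda V genes, Iglv1 held 42, 26 and 36 counts in controls and 4, 4 and 7 with Cd4Cre, a log2 fold change of -2.79 (SE 0.38, edgeR adjusted p = 0.00119). It passed the count filter through its control counts alone. Iglv2 and Iglv3 missed the count filter. Iglv2 had 6, 5 and 9 counts against 1, 0 and 5, so the groups touched at 5. Iglv3 had 2, 0 and 3 counts against 1, 2 and 1 and overlapped.

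Iglc3 took a larger part of the sum of Iglc2 and Iglc3 with Cd4Cre. Its share was 40.8%, 37.6% and 39.8% in controls and 69.4%, 60.5% and 53.6% with Cd4Cre. The groups did not overlap and their means were 39.4% ± 1.61 and 61.2% ± 7.93 (SD, n = 3). Tested by exact permutation (two-sided), the share gave p = 0.1, which is the lowest possible with 3 libraries a group, and the contrast was noticed after the values were seen. Within the 314 coding bases compared above, the 2 genes differ at 11 positions. Over their transcripts, 10.5% of the 50-base stretches of Iglc2 and 10.7% of those of Iglc3 are shared with another light chain gene. With Iglc2 and Iglc3 added into 1 feature, 11 of the light chain features were again called lower.

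Lambda transcripts made up a larger share of light chain counts with Cd4Cre. The share was 14.9%, 10.5% and 11.6% in controls and 26.1%, 23.7% and 20.9% with Cd4Cre, with no overlap. The mean was higher by 11.3 percentage points, 23.6% ± 2.62 against 12.3% ± 2.30 (SD, n = 3), and the highest upper limit in controls (16.7%) and the lowest lower limit with Cd4Cre (15.5%) of the 95% exact intervals overlapped slightly. Much of this shift rested on Iglc3. Without Iglc3 the share was 11.3%, 8.07% and 9.35% in controls and 12.8%, 14.8% and 14.5% with Cd4Cre, a difference of 4.44 points.

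**Figure D3:**
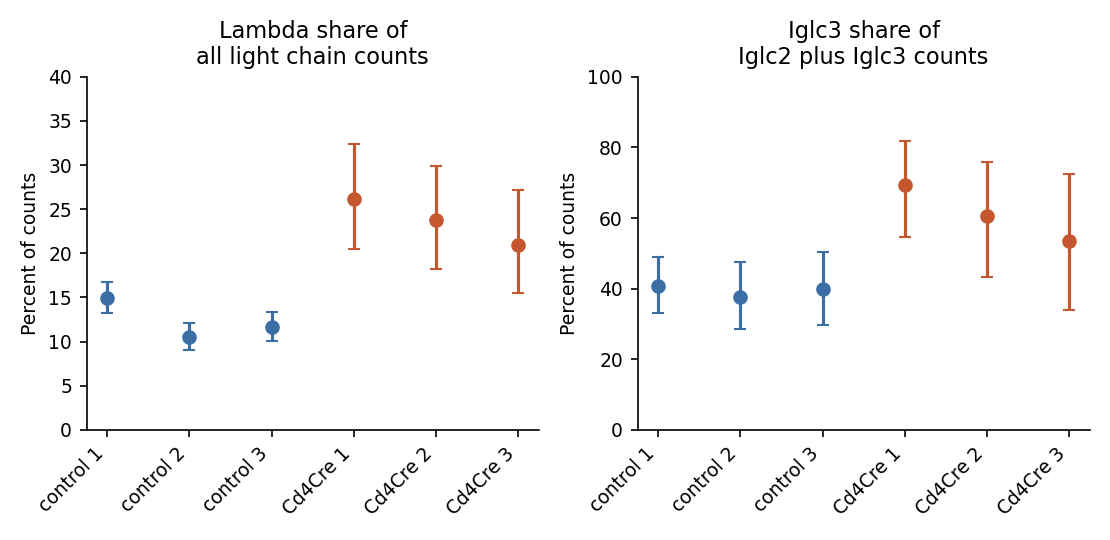
Lambda share of all light chain counts (left) and Iglc3 share of the summed Iglc2 and Iglc3 counts (right) in each library, in percent, with exact 95% binomial intervals as bars that cover counting error only. All 3 Cd4Cre libraries (orange) lie above all 3 controls (blue) in both plots, while several intervals on the right overlap.

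Other genes were compared by 11 lists, those of the antibody pathway and B cells and the T cell, dendritic cell and macrophage, epithelial and erythroid markers. The lists held 119 genes in all, of which 25 passed the threshold in the fit above, Lyz2 and the called epithelial markers included. Over all genes of that fit, 2.96% were called lower and 1.15% higher. Heavy constant genes pair with light chains and set the antibody class. Of the 8 heavy constant genes, all tested, 6 were lower and 0 higher, with a median log2 fold change of -5.65. Ighg2b, a class-switched constant region, went from 505, 406 and 395 counts to 5, 4 and 6 (log2 fold change -6.44, SE 0.20, edgeR adjusted p = 1.09e-08). Igha, the constant region of IgA, went from 494, 356 and 384 counts to 3, 8 and 3 (-6.45, SE 0.25, on the same scale). Ighg1 (-4.86, SE 0.58), Ighg2c (-6.71, SE 0.41) and Ighg3 (-3.34, SE 0.46), the constant regions of other IgG classes, were also lower. Ighe, that of IgE, had 91, 82 and 111 counts against 0 in each Cd4Cre library, at least 96.7-fold lower against the floor of 3 counts over the group. Ighm, which T cell precursors transcribe without a full antibody gene, had 8227, 7985 and 7939 counts against 10004, 10166 and 8082 (log2 fold change 0.19, edgeR adjusted p = 0.206). Ighd had a log2 fold change of 0.72 (edgeR adjusted p = 0.0703).

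The light chain sum was large beside the switched heavy chains that remained. There were 1.24, 1.5 and 1.43 light chain counts for each count of the heavy constant genes other than Ighm and Ighd in controls, and 20.2, 13.7 and 11.8 with Cd4Cre. For heavy V genes, 115 in the tables, the sum was 9.52 ± 1.34 CPM in controls and 1.03 ± 0.23 CPM with Cd4Cre, 10.8% of the control level. That remainder was close to the 9.08% of the Igkv sum, a difference that was not tested.

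Of 18 B cell identity genes, all tested, 4 were lower and 0 higher, among them Ms4a1, Fcer2a and Cxcr5, and the median log2 fold change was -0.53. Ms4a1 encodes CD20 and had 161, 121 and 121 counts in controls against 55, 40 and 34 (log2 fold change -1.67, SE 0.20, edgeR adjusted p = 0.0004). Fcer2a, the low-affinity IgE receptor CD23 of mature B cells, had 163, 148 and 138 against 27, 23 and 18 (-2.75, SE 0.18 on the same scale). Cxcr5, a follicle homing receptor, had a log2 fold change of -1.74 (SE 0.24). Cd79a, a signalling chain of the B cell receptor, had 296, 247 and 193 counts against 184, 151 and 46 and did not pass (edgeR adjusted p = 0.131). The fall was not shared by the whole list. Cd79b (0.15), Ebf1 (0.15), Cd37 (0.13) and Ralgps2 (0.04) had positive log2 fold changes and were not called. The other listed genes had negative ones. Cd4Cre replicate 3 was far below the other Cd4Cre libraries for Cd79a and Pax5 (24 counts of Pax5 against 82 and 84), but not for Igkc.

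Of 16 plasma cell and antibody secretion genes, 14 were tested, 2 were lower and 1 higher, with a median log2 fold change of 0.08. Jchain, which links IgM and IgA chains into polymers, fell from 232, 243 and 261 counts to 17, 6 and 22 (log2 fold change -4.05, SE 0.27, edgeR adjusted p = 8.16e-06). Irf4, a factor of plasma cell development and of light chain transcription, fell by 0.70 on the log2 scale (SE 0.13). Sdc1, the surface proteoglycan CD138, was higher by 0.56 on that scale (SE 0.12), a call lost without control replicate 1, control replicate 3 or Cd4Cre replicate 1 (edgeR adjusted p 0.075 to 0.094). Epithelial cells also express Sdc1, and the epithelial marker sum was higher with Cd4Cre, as given above, and the part of epithelium in this value was not tested. Xbp1, a secretion factor used in many cell types, did not pass (log2 fold change 0.22, edgeR adjusted p = 0.108).

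Among 20 regulators of the light chain loci, 3 were lower and 0 higher. Beside Irf4 they were Rel, a subunit of NF-kappa B, at a log2 fold change of -0.68 (SE 0.08), and Mef2c, a transcription factor of B and myeloid cells, at -1.24 (SE 0.17). Of 13 V(D)J recombination genes 0 passed the edgeR threshold in either direction, 2 were lower at an unadjusted p under 0.05, and DESeq2 and limma-voom also called 0. Rag1, which encodes part of the recombinase, had 70419 to 79246 counts in controls and 72829 to 90059 with Cd4Cre. Of 15 B cell receptor signalling genes 3 were lower, among them Blnk (-0.68) and Cd72 (-0.81, both as log2 fold changes), and 1 was higher, the kinase gene Blk (1.05, SE 0.15). The call of Blnk was lost without control replicate 1, control replicate 2 or Cd4Cre replicate 1 (edgeR adjusted p 0.057 to 0.061). That of Cd72 was lost without any 1 control or Cd4Cre replicate 1 (0.051 to 0.088). Of 10 T cell markers 0 passed the edgeR threshold and 2 were higher at an unadjusted p under 0.05. Of 6 tested erythroid markers 0 passed, 0 of them at an unadjusted p under 0.05. DESeq2 and limma-voom called 0 in either list.

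**Figure D4:**
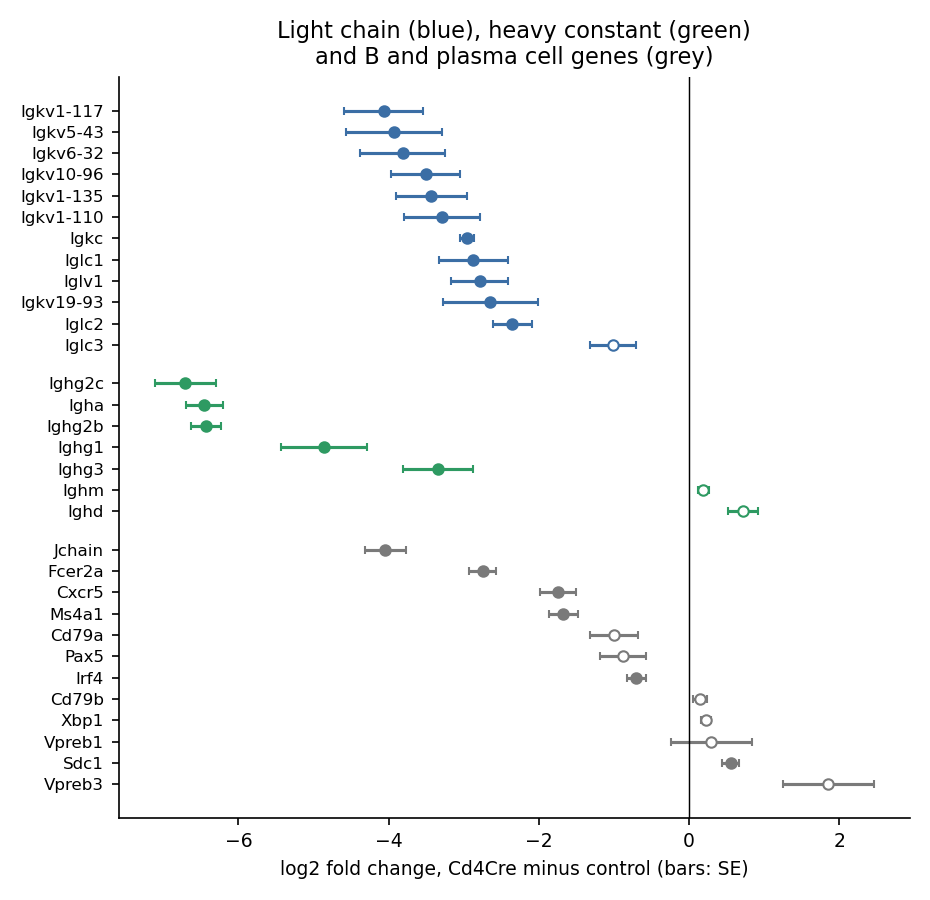
Log2 fold change, Cd4Cre minus control, of the 12 light chain genes past the count filter (blue), heavy constant genes (green) and selected B cell and plasma cell genes (grey), with SE bars and filled points where the edgeR adjusted p was under 0.05. Light chains lie between -4.07 and -1.01, below Ms4a1 except for Iglc3. Ighg3, Jchain, Fcer2a, Cxcr5 and Ms4a1 fall within that range. Ighg1, Ighg2b, Ighg2c and Igha lie below it, and Ighe is not drawn.

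Igkc was set against 6 single genes within each library, those of B cells and plasma cells and Ighm. Its ratio did not overlap between groups for 5 of the 6 and overlapped for Fcer2a. Since Igkc itself fell, its ratio shifts for any gene that did not fall equally, so this number is not evidence about the 6 genes. There were 6.06, 6.55 and 6.49 Igkc counts for each Fcer2a count in controls and 4.63, 5.61 and 6.72 with Cd4Cre (two-sided exact permutation p = 0.4). For Ms4a1 the ratio was 6.14, 8.01 and 7.4 in controls and 2.27, 3.23 and 3.56 with Cd4Cre. For Jchain it was higher with Cd4Cre, at 4.26, 3.99 and 3.43 in controls against 7.35, 21.5 and 5.50. The mean ratio to Ighg2b was 2.20 in controls and 25.8 with Cd4Cre. Mean ratios to Cd79a were 3.97 and 1.39, and those to Ighm 0.118 and 0.0134. Ighm was not called in the fit, so its ratio mostly restates the fall of Igkc. These 5 ratios did not overlap between groups, each at a two-sided exact permutation p of 0.1, the lowest this design can give, and 0.12 after Benjamini-Hochberg adjustment over the 6 ratios.

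Against whole marker sums, there were 0.295 ± 0.017 light chain counts for each B cell identity count in controls and 0.0448 ± 0.0038 with Cd4Cre (SD, n = 3). For the plasma cell list the ratio was 0.0769 ± 0.0045 and 0.0106 ± 0.0003. Both denominators rest mostly on a few genes. Ralgps2, Cd37 and Cd79b took 68.4% of the B cell counts and Edem1 and Xbp1 took 85.2% of the plasma cell counts. Which cells these reads came from was not tested. These ratios are therefore not levels per B cell or per plasma cell.

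The surrogate light chains, which stand in for the light chain in the pre-B cell receptor, were not called lower. Of the 2 tested, 0 were lower and 1 (Vpreb3) was higher at an unadjusted edgeR p under 0.05, and DESeq2 and limma-voom called 0. Igll1, the constant-like part, had 3, 2 and 2 counts in controls and 25, 30 and 4 with Cd4Cre. It missed the count filter and was called higher in the fit without one (log2 fold change 2.96, SE 0.67, edgeR adjusted p = 0.018). Vpreb3, a related pre-B protein, had 7, 7 and 0 counts against 24, 16 and 13 and did not pass (log2 fold change 1.86, edgeR adjusted p = 0.136). Vpreb1 had 11, 13 and 6 counts against 24, 8 and 6, with overlap (log2 fold change 0.30, edgeR adjusted p = 0.83), and Vpreb2 had 0, 1 and 0 against 4, 7 and 2. Summed over these 4 genes, the level was 0.53 to 1.57 CPM in controls and 1.74 to 4.87 CPM with Cd4Cre, and Cd4Cre replicate 3 was the lowest of its group.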

How the data were processed

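Estimated counts and FPKM values were deposited by the authors for each gene of 3 control and 3 Cd4Cre libraries. In the FPKM values the authors had corrected for library size and gene length. The estimated counts were deposited unnormalized per the file headers, with 9.27% to 9.87% of a library's entries not whole. Per the submitters' processing notes, fastp 0.18.0, HISAT2 and StringTie 1.3.1 were used. The counting program, genome build and use of strand were not given in the sources used here, so no coordinates are given and antisense or overlapping reads may be shared.

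After rounding, the counts were fitted with edgeR 4.0.16 under R 4.3.3 (TMM scaling, filterByExpr with a minimum count of 10 and a minimum total of 15, two-sided quasi-likelihood test, Benjamini-Hochberg over all 13934 genes kept, threshold 0.05). Single-gene adjusted p-values come from this fit unless another is named, and then they are adjusted over the genes of that fit. SE values come from the F statistic of the same fit, and CPM values use TMM library sizes. Alternatives used limma 3.58.1, DESeq2 1.42.0, other scalings and filters, an age term, a replicate block and left-out libraries. Intervals are 95% Clopper-Pearson intervals, and they and the floor of 3 counts over a group cover counting error only, as reads that lack molecular identifiers may be copies of 1 molecule. Sequences, orientation and order along the locus come from GENCODE M21, which held all 118 genes.

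The light chain genes and the 11 companion lists were chosen with earlier results of these data known. Named were the constant and joining genes, light chain genes past the filter, the 10 Igkv genes with the highest total, Iglv genes with a count, members of the lists past the threshold, and Tox. Other genes (Ddx3y, Eif2s3y, Uty, Kdm5d, Igkv8-16, Cd79a, Pax5, Xbp1, Rag1, Ighm, Ighd, Ralgps2, Cd37, Cd79b, Edem1, Igll1, Vpreb1, Vpreb2 and Vpreb3) were named after their values were seen. The result of 1 listed gene is not reported here, and the search for a promoter motif was not run because the promoter table used held none of these genes.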

Additional observations from a re-analysis of the deposited data

How the results depend on the processing

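The kappa and lambda sums were lower with Cd4Cre under every alternative run for them. The kappa sum (log2 ratio -3.09) was -3.12 to -3.04 with 1 library left out and -3.46 with the constant gene left out. The lambda sum (-1.95) was -2.04 to -1.80 with 1 library left out, -2.36 with constant genes left out and -2.46 without Iglc3. The gain in lambda share (11.3 points) was 10 to 12.6 points with 1 library left out and 4.44 without Iglc3. The light chain to B cell ratio (log2 ratio -2.72) was -2.84 without Iglc3. The difference in Igkv genes at matched depth (-1.80 genes) reversed to 0.87 with at least 2 counts required and was -3.35 to -1.03 with 1 library left out. The settings that leave out Iglc3 were chosen after seeing the data.

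Of light chain genes, 11 were called lower. The number was 21 with no count filter, 1 with a mean of at least 5 CPM, where only Igkc was tested, and 7 in the 3-week-old libraries alone, where fewer samples entered. It was 10 to 14 with 1 library left out. The 3-week-old libraries alone lost Igkv19-93, Iglv1, Iglc1 and Igkv5-43 (adjusted p 0.287, 0.054, 0.103 and 0.061). Of the companion genes, 25 were called, 13 in the 3-week-old libraries alone and 19 to 30 with 1 library left out. Blnk, Cd72 and Sdc1 were among those that lost their calls in some of these fits. Same-numbered libraries deviated together weakly or not at all (correlations 0.085, -0.11 and -0.043). With so few libraries a group, this cannot decide whether the numbers pair them, and replicate 1 shares its age between the genotypes. The replicate block gave 10 light chain calls, without Igkv19-93 (adjusted p 0.08). It gave 23 companion calls, with 3 lost (Cd72, Krt8 and Sdc1, adjusted p 0.056, 0.074 and 0.066) and 1 gained, Cd79a. Depth limits single V genes, since 41 of them had 1 to 10 counts.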
